A study of Homo sapiens with 9 samples.

Results

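The genes described here build or occupy the apical surface of a kidney epithelial cell: the raft protein gene MAL, the small membrane protein gene PDZK1IP1, the scaffold genes PDZK1 and NHERF1, the membrane-to-actin linker genes EZR, MSN and RDX, the villin gene VIL1 and the mucin gene MUC1. They are 9 of the 11963 genes that the array table names singly, and 17 probe sets read them. MAL and PDZK1IP1 were chosen by their measured decreases in these arrays. Ranked by decrease from untreated cells among the 4368 genes tested, MAL was 7th at 24 h and 6th at 48 h. PDZK1IP1 was 24th and 8th. The next member in that order was PDZK1, at 30th and 31st. The other 7 genes were added for their known place in the apical membrane, though earlier results of these data were known by then. Because MAL and PDZK1IP1 were chosen by their decreases, their differences are given as a description with no test.

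HK-2 is an immortalised line from the proximal tubule of a human kidney, and TGFβ1 is the cytokine used here to drive its transition from an epithelial to a mesenchymal state. Cells were untreated (0 h) or had TGFβ1 for 24 h or 48 h, with 3 Affymetrix arrays per time. The experiment was done on 3 days with consecutive passages of the line, the plates of a time point being pooled each day. The labels number the arrays 1 to 3 at each time without naming a day, and arrays that share a number are taken here as runs 1, 2 and 3 because their values shifted together. Per the labels the untreated cells are those of 0 h, whereas the design text calls this group vehicle, and the effect of the cytokine cannot be told apart from that of time in culture, since untreated cells kept for as long were not analysed here. The TGFβ1 dose is not stated in the labels. Cells of all groups grew in medium with EGF and hydrocortisone among its additives, and all come from 1 line.

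In a tubule cell the apical membrane is folded into microvilli that are packed with transporters. Ezrin, and in other cells its close relatives radixin and moesin, tie the membrane to the actin core of a microvillus, and NHERF1 joins ezrin to membrane proteins through its PDZ domains. PDZK1 is a related scaffold of the proximal tubule brush border, and PDZK1IP1, also called MAP17, ends in a motif that binds PDZK1. MAL is a proteolipid of lipid rafts that in dog MDCK cells carries newly made proteins to the apical surface. Villin bundles and severs actin filaments in microvilli, and MUC1 is a mucin anchored in the apical membrane.

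The promoters of the 3 members with the lowest treated levels relative to untreated cells, MAL, PDZK1IP1 and PDZK1, are shown because their differences were the largest among the members that passed the filter. Each window is the 250 bases before a start site in RefSeq, in build GRCh38.p14, written 5′ to 3′ on the strand of the gene. For PDZK1 the table lists 2 overlapping windows, and the first listed is shown. Capitals mark matches on either strand to the E-box CACCTG, which SNAIL and ZEB repressors can bind, and to the SMAD box CAGAC.
MAL, chr2:95025458-95025707, plus strand: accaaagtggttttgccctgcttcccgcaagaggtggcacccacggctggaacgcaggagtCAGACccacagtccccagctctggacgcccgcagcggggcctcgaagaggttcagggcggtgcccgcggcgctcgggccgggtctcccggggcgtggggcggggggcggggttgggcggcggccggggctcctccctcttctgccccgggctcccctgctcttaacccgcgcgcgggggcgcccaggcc
PDZK1IP1, chr1:47190037-47190286, minus strand: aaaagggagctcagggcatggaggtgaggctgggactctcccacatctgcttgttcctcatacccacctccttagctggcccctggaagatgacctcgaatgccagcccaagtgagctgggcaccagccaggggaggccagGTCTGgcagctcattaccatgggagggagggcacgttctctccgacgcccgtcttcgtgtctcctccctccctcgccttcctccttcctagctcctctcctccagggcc
PDZK1, chr1:145707401-145707650, minus strand: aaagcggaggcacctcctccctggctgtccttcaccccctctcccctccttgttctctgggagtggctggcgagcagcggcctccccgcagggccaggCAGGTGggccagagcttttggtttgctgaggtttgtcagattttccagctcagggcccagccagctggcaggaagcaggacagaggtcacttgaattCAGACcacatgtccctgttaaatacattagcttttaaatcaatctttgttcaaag

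Each of the 3 windows held 1 SMAD box, which began 189 bases before the start site in MAL, 109 in PDZK1IP1 and 55 in PDZK1. This letter string is common, and 38.0% of the 35116 windows of the same length in the table hold it. An E-box was found in the PDZK1 window shown, 152 bases before the start site, and not in those of MAL and PDZK1IP1, against 17.5% of all windows. The overlapping PDZK1 window not shown held 2 E-boxes and 1 SMAD box. Its SMAD box and the farther E-box are the same sites as in the window shown. The nearer E-box began 7 bases before the start site of the window not shown. The TATA box TATAAA, present in 10.7% of windows, was in none of the 3. The HNF1 palindrome, searched by the same script, was in none of the 3 and in 0.0057% of all windows. The searched motifs do not overlap each other in these windows. GC content was 75.2% in the MAL window, 62.4% in that of PDZK1IP1 and 55.6% in that of PDZK1, with a median of 58.0% over all windows. Windows were found for 8 of the 9 genes, VIL1 being the other one. Those of MUC1 held 2 E-boxes and 1 TATA box, that of RDX 1 SMAD box, 1 of those of MSN 1 SMAD box, and those of NHERF1 and EZR none of the searched motifs.

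Levels are given as the authors' GCRMA values on the log2 scale, each gene being read by its brightest probe set. Array medians lay between 2.195 and 2.229, at the background end of the scale. Differences were fitted with limma over the 4368 genes that reached a log2 value of 4 on at least 3 arrays, and called at a Benjamini-Hochberg adjusted p under 0.05. Of these genes 210 were called at 24 h (4.81%) and 194 at 48 h (4.44%) against untreated cells. Between 48 h and 24 h 0 were called in limma (0%), with 219 at an unadjusted p under 0.05. The same fit with the run as a block is given where it changes the call of a named gene or a list's count. It called 11.5% of the genes at 24 h, 10.0% at 48 h and 0% between 48 h and 24 h, where 709 had an unadjusted p under 0.05. Of the 9 members, 7 passed the filter and 2, VIL1 and MUC1, did not.

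MAL stood at 6.39, 7.43 and 6.57 in untreated cells of runs 1 to 3, at 3.88, 4.13 and 4.40 at 24 h of TGFβ1, and at 4.25, 4.23 and 3.74 at 48 h. Every treated array lay below every untreated one. The difference from untreated was −2.66 at 24 h, or 6.31-fold lower, and −2.72 at 48 h, or 6.60-fold lower, with a standard error (SE) of 0.276 for both. Run by run it was −2.51, −3.29 and −2.17 at 24 h and −2.14, −3.20 and −2.83 at 48 h. The 24 h and 48 h arrays overlapped, with a mean difference of −0.06, with run values of 0.37, 0.10 and −0.66. Treated values lay around the filter level of 4, toward the background end of the scale. In bulk RNA, fewer cells with a transcript and less of it per cell cannot be told apart.

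PDZK1IP1 stood at 7.71, 7.51 and 7.90 in untreated cells, at 6.10, 5.57 and 6.45 at 24 h and at 5.48, 4.40 and 5.87 at 48 h. The untreated values were high and close together, and the treated ones were lower. The SD was 0.194 before treatment, 0.440 after 24 h and 0.761 after 48 h (n = 3 each). No treated array reached an untreated one. The difference from untreated was −1.67 ± 0.355 (SE) at 24 h, or 3.18-fold lower, and −2.46 at 48 h, or 5.49-fold lower. PDZK1IP1 was lower at 48 h than at 24 h in each run, by −0.62, −1.17 and −0.58, a mean of −0.79. That mean ranks 9th among the decreases of 48 h against 24 h over the 4368 genes tested, a comparison in which 0 genes were called. The 48 h values entered the choice of PDZK1IP1, so this rank too is a description only. The mean moved to −0.37 without the 48 h array of run 2, and ranged from −1.10 to −0.37 with 1 array left out. The arrays of both times still overlapped, because run 2 was lowest and run 3 highest at each time.

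**Figure D1:**
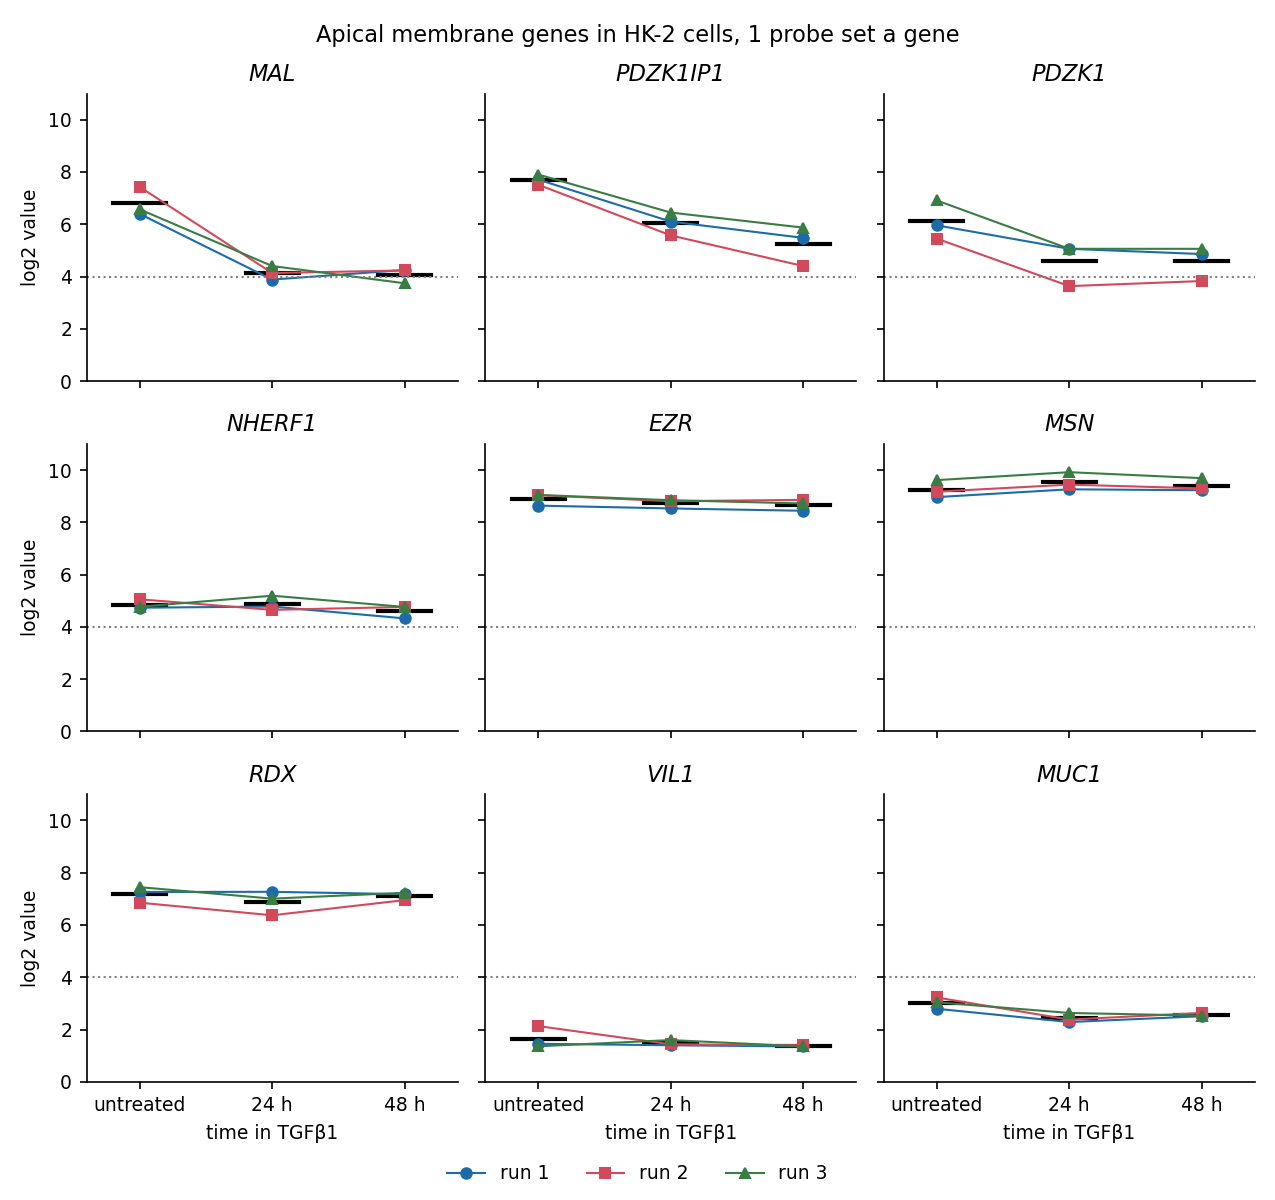
Log2 value of each of the 9 genes (vertical axis) in untreated cells and after 24 h and 48 h of TGFβ1 (horizontal axis), 1 point per array, lines joining the arrays of a run, black bars at group means and a dotted line at the filter level of 4. MAL, PDZK1IP1 and PDZK1 are lower at 24 h in every run. EZR is also lower and MSN higher at 24 h in every run, by smaller amounts. MAL and PDZK1IP1 have no test. PDZK1, NHERF1, EZR, MSN and RDX are not called, except PDZK1 with the run as a block. VIL1 and MUC1 lie below the filter.

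PDZK1, the scaffold that binds the tail of PDZK1IP1, stood at 5.96, 5.45 and 6.91 in untreated cells, at 5.06, 3.63 and 5.06 at 24 h and at 4.86, 3.83 and 5.06 at 48 h. The value 5.06 is the same number on 3 arrays, and 53.3% of all probe sets carry 1 value on 2 or more arrays. The runs differed widely, with run 2 lowest and run 3 highest or level with the highest at each time, yet every treated array lay below every untreated one. The difference was −1.52 ± 0.497 (SE) at 24 h, or 2.87-fold lower (95% interval −2.64 to −0.40), and −1.52 at 48 h, or 2.88-fold lower (95% interval −2.64 to −0.41).

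Against the spread between runs PDZK1 was not called, with limma adjusted p = 0.153 at 24 h and 0.161 at 48 h. With the run as a block it was called at both times, with limma adjusted p = 0.00151 at 24 h and 0.00163 at 48 h, and the SE fell to 0.188. Within runs the decrease was −0.90, −1.82 and −1.85 at 24 h and −1.10, −1.62 and −1.85 at 48 h, so PDZK1 was lower in 3 of 3 runs each time. With 1 run left out of the blocked fit, a setting added after the data were seen, PDZK1 was called each time, with limma adjusted p from 0.00319 to 0.0385. Between 48 h and 24 h it differed by −0.002, with a 95% interval of −1.12 to 1.12.

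NHERF1, the scaffold that bridges ezrin and membrane proteins, was not called at either time. It stood at 4.73, 5.05 and 4.77 in untreated cells, at 4.78, 4.65 and 5.19 at 24 h and at 4.32, 4.76 and 4.76 at 48 h. The groups overlapped, and the runs went in different directions at 24 h. The difference was 0.02 (95% interval −0.41 to 0.45, limma adjusted p = 0.977) at 24 h and −0.24 (95% interval −0.67 to 0.19, limma adjusted p = 0.711) at 48 h. The intervals do not hold the decrease of 1.52 measured for PDZK1, but they overlap the intervals of PDZK1 at both times. A difference between these genes was not tested.

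**Figure D2:**
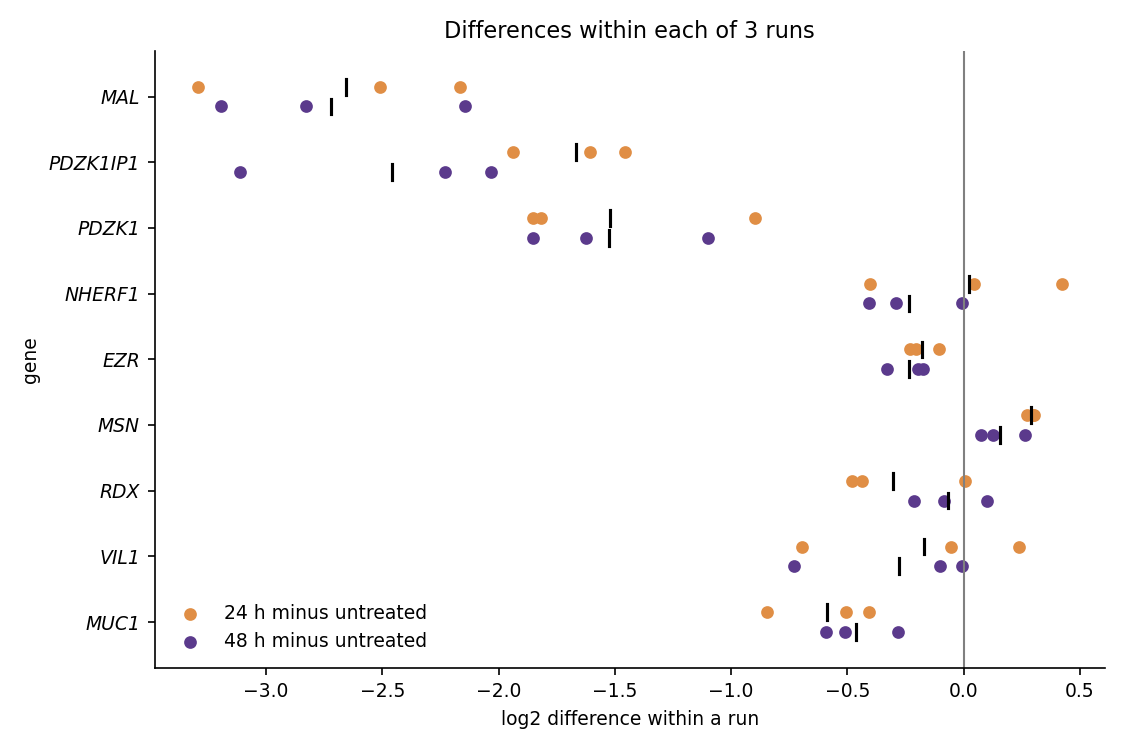
Log2 difference from the untreated array of the same run (horizontal axis) for each gene (vertical axis), orange points for 24 h and purple points for 48 h of TGFβ1, with black ticks at the mean of 3 runs. All points of MAL, PDZK1IP1 and PDZK1 lie at −0.90 or lower, and the points of NHERF1, EZR, MSN and RDX lie between −0.48 and 0.42. Those of MUC1 lie between −0.85 and −0.28 and those of VIL1 between −0.73 and 0.24, both genes being below the filter.

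Among the linker genes EZR, MSN and RDX, 0 were called at 24 h or 48 h in limma, with or without the block, and 0 had an unadjusted p under 0.05 without it. EZR, which encodes ezrin, stood at 8.64, 9.04 and 9.05 in untreated cells, at 8.53, 8.81 and 8.85 at 24 h and at 8.44, 8.86 and 8.72 at 48 h. It was slightly lower than the untreated array in each run, while the groups overlapped. The difference was −0.18 (95% interval −0.57 to 0.21, limma adjusted p = 0.670) at 24 h and −0.23 (95% interval −0.62 to 0.15, limma adjusted p = 0.675) at 48 h.

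MSN, which encodes moesin, stood at 8.96, 9.17 and 9.61 in untreated cells, at 9.26, 9.44 and 9.92 at 24 h and at 9.23, 9.30 and 9.69 at 48 h. Its difference was 0.29 (95% interval −0.22 to 0.80, limma adjusted p = 0.589) at 24 h and 0.15 (95% interval −0.36 to 0.67, limma adjusted p = 0.881) at 48 h. The groups overlapped because runs differed more than times, but within runs the 24 h array was higher by 0.30, 0.27 and 0.30. With the run as a block the limma adjusted p was 0.109 at 24 h.

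RDX, which encodes radixin, stood at 7.26, 6.85 and 7.45 in untreated cells, at 7.27, 6.37 and 7.01 at 24 h and at 7.18, 6.95 and 7.23 at 48 h. Its difference was −0.31 (95% interval −0.85 to 0.24, limma adjusted p = 0.590) at 24 h and −0.07 (95% interval −0.61 to 0.47, limma adjusted p = 0.975) at 48 h. Runs 2 and 3 were lower at 24 h and run 1 was level, so no direction was shared by all runs.

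The difference between the log2 values of MSN and EZR was followed on each array. It is a description with no test, since EZR was lower and MSN higher in every run, which fixes the sign of its change. MSN minus EZR was 0.33, 0.13 and 0.57 in untreated cells, 0.73, 0.63 and 1.07 at 24 h and 0.79, 0.44 and 0.97 at 48 h. The 24 h arrays lay above all untreated ones and the 48 h arrays overlapped them. The change was 0.47 at 24 h and 0.39 at 48 h, with run values from 0.41 to 0.51 at 24 h and from 0.30 to 0.46 at 48 h. The levels of 2 probe sets are not comparable, so only the change of their difference can be read.

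**Figure D3:**
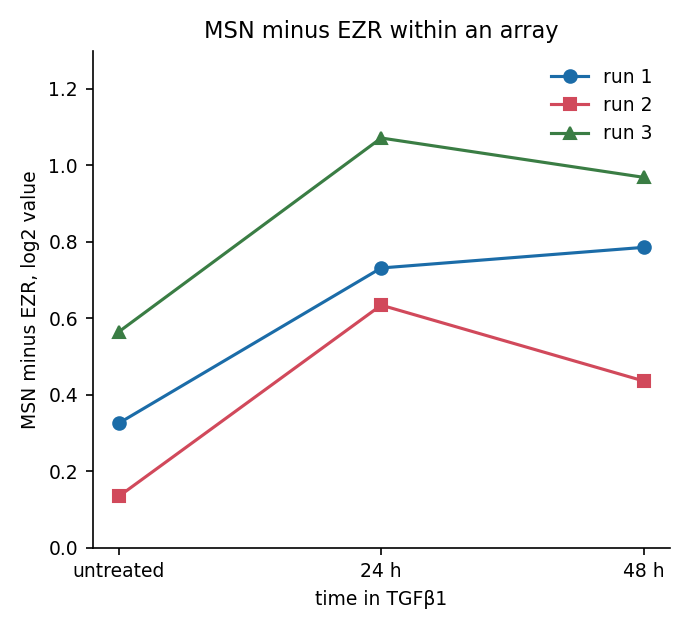
MSN minus EZR on each array in log2 units (vertical axis) in untreated cells and after 24 h and 48 h of TGFβ1 (horizontal axis), 1 line per run. Every run is higher at 24 h and at 48 h than in its untreated array, and the runs themselves lie 0.13 to 0.57 in untreated cells.

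VIL1 and MUC1 lay below the filter on all 9 arrays and were not tested. VIL1 stood at 1.46, 2.13 and 1.36 in untreated cells, at 1.40, 1.44 and 1.60 at 24 h and at 1.35, 1.40 and 1.35 at 48 h, all below the array medians, and the groups overlapped. MUC1 stood at 2.79, 3.23 and 3.04 in untreated cells, at 2.29, 2.38 and 2.63 at 24 h and at 2.51, 2.63 and 2.53 at 48 h. Its treated arrays were all below its untreated ones, by a mean of −0.59 at 24 h and −0.46 at 48 h, at values close to background.

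For genes with several probe sets the dimmer sets were set against the brightest. The 5 sets of EZR differed by −0.30 to 0.03 at 24 h and by −0.39 to −0.06 at 48 h, so that 1 of them was not lower at 24 h. The second set of RDX was at 0.08 and 0.16 where the brightest was at −0.31 and −0.07, and its dimmest set lay below the array medians. The other sets of MUC1 were lower by −0.25 and −0.12 at 24 h and by −0.28 and −0.04 at 48 h, all below the filter. MAL, PDZK1IP1, PDZK1, NHERF1, MSN and VIL1 had 1 set each, so no other set checks them. EZR, MSN and RDX are related in sequence, and the set of MAL, most sets of EZR and those of MUC1 carry a suffix that Affymetrix gives to sets that can match more than 1 transcript.

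**Figure D4:**
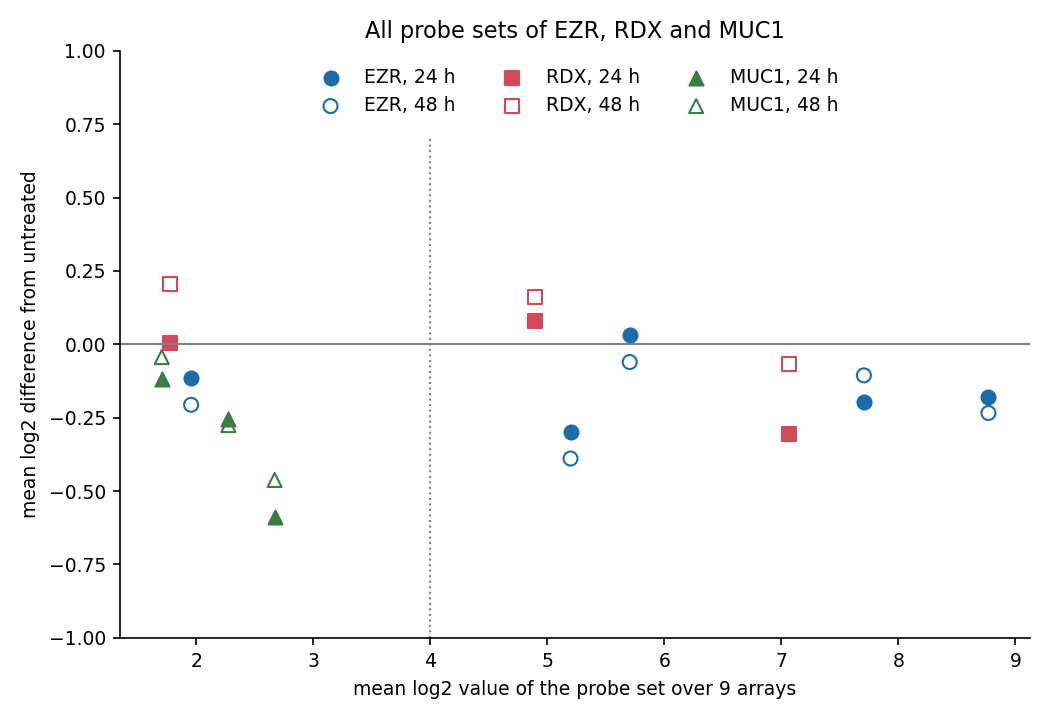
Mean log2 difference from untreated cells (vertical axis) against the mean log2 value over 9 arrays (horizontal axis) for every probe set of EZR, RDX and MUC1, filled symbols for 24 h and open ones for 48 h of TGFβ1, with a dotted line at the filter level of 4. EZR sets spread from −0.39 to 0.03, and the 2 brighter RDX sets fall on either side of 0 at 24 h.

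Of the 5 members with a test (PDZK1, NHERF1, EZR, MSN and RDX), 0 were called at 24 h or 48 h by limma, against 4.81% and 4.44% of all genes. At an unadjusted p under 0.05, PDZK1 alone passed at either time. With the run as a block 1 of the 5, PDZK1, was called at each time, against 11.5% and 10.0% of all genes. Between 48 h and 24 h 0 of the 5 were called in either fit and 0 had an unadjusted p under 0.05 without the block, their adjusted p-values lying between 0.781 and 0.998 in limma without the block.

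Of the relatives of MAL, PLLP was called and MALL was called with the run as a block alone. PLLP, which encodes plasmolipin, a raft protein with the same MARVEL domain as MAL, stood at 5.28, 5.87 and 4.49 in untreated cells, at 3.58, 3.66 and 3.50 at 24 h and at 3.31, 3.66 and 3.10 at 48 h. It fell by 1.63 at 24 h (SE 0.303, limma adjusted p = 0.0153) and by 1.86 at 48 h (limma adjusted p = 0.00792). PLLP passed the filter only through its untreated arrays, so neither its p-values nor a count that holds it is support. MALL, named for its likeness to MAL, had differences of 0.57 at 24 h and 0.55 at 48 h (limma adjusted p = 0.153 and 0.189). With the run as a block MALL was called as higher (limma adjusted p = 0.0118 and 0.0146). It stood at 5.20, 5.26 and 5.64 at 24 h, against 4.66, 4.71 and 5.02 in untreated cells.

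Of 11 tested genes of the MAL family and lipid rafts, 0 were called as higher at either time. Only PLLP was called as lower at each time, and it passed the filter only through its untreated arrays. Of all genes 4.81% were called at 24 h and 4.44% at 48 h. The list's median difference was −0.12 at 24 h and −0.16 at 48 h, against 0.015 and 0.023 for all genes. CAV1, the coat protein of caveolae, had a difference of −0.23 at 24 h (limma adjusted p = 0.384), and ANXA2, an annexin bound to membrane and actin, had 0.05 (limma adjusted p = 0.912).

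Of 13 genes of the microvillus core and its links on the array, 3 were tested and 10 did not pass the filter. In limma 1 of the 3 was called at 24 h and 0 at 48 h, against 4.81% and 4.44% of all genes. With the run as a block 1 was called at each time, against 11.5% and 10.0% of all genes. A list this short cannot be told apart from those shares. PLS1, which encodes an actin bundler of microvilli, stood at 6.73, 6.11 and 6.60 in untreated cells, at 5.66, 4.63 and 5.15 at 24 h and at 5.65, 5.00 and 5.60 at 48 h. No treated array reached an untreated one. It fell by 1.33 at 24 h (SE 0.287, limma adjusted p = 0.0296). At 48 h the difference was −1.07 (limma adjusted p = 0.0755; 0.00135 with the run as a block). EPS8, an actin capping and bundling protein gene, was at −0.69 and −0.29 (limma adjusted p = 0.319 and 0.804) and its relative EPS8L2 at −0.42 and −0.47 (0.556 and 0.605).

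Of 10 tested regulators and membrane partners of the linker family, 0 were called at 24 h and 1 at 48 h, against 4.81% and 4.44% of all genes. With the run as a block 1 was called as higher at 24 h and 1 as lower at 48 h, against 11.5% and 10.0% of all genes. The gene called at 48 h was ICAM1, an adhesion receptor, which fell by 0.70 (limma adjusted p = 0.0143). The moesin and ezrin partner CD44 was at 0.29 at 24 h (limma adjusted p = 0.564). The list medians were −0.02 and 0.06.

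None of 9 tested apical trafficking genes, 4 polarity complex genes or 1 membrane glycoprotein gene was called in limma at either time. Of all genes 4.81% and 4.44% were called, and lists this short cannot be told apart from those shares. VAMP8, a SNARE of late endosomes and apical secretion, was at −0.52 at 48 h (limma adjusted p = 0.0749; 0.0271 with the run as a block). The polarity genes PARD3 and PRKCI were at −0.30 and −0.36 at 24 h (limma adjusted p = 0.482 and 0.457), LIN7C at −0.18 and DLG1 at −0.005. At 48 h PARD3 was at −0.33, PRKCI at 0.02, LIN7C at 0.12 and DLG1 at −0.02. Of 9 NHERF relatives and apical transporters listed with them, among them NHERF2, SLC34A1, SLC9A3 and the glucose transporter genes SLC5A1 and SLC5A2, all lay below the filter on these arrays. No list gene was called between 48 h and 24 h, where 0% of all genes were called.

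**Figure D5:**
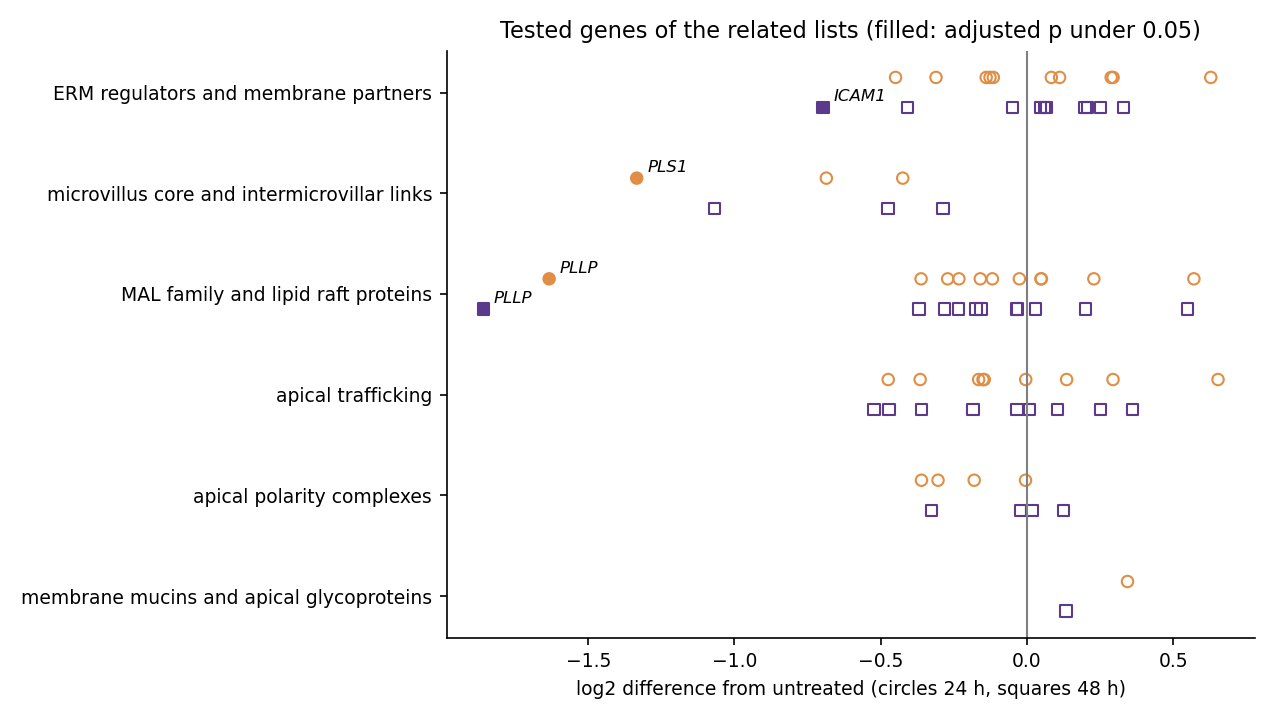
Log2 difference from untreated cells (horizontal axis) of every tested gene in 6 related lists (vertical axis), orange circles for 24 h and purple squares for 48 h of TGFβ1, filled where the limma adjusted p is under 0.05. PLLP is filled at both times, PLS1 at 24 h and ICAM1 at 48 h, all on the lower side. PLLP passed the filter only through its untreated arrays.

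The patterns over the 9 arrays most like those of MAL and PDZK1IP1 were sought among the 4367 other tested genes by Pearson correlation, given as a description since all arrays share the same 3 times and runs. Both members were picked for their decreases, so the search favours other genes that decrease. For MAL they were LRRC61 (r = 0.986), the inositol synthesis gene ISYNA1 (r = 0.980) and GDF15, a cytokine of the TGF-beta family (r = 0.977). LRRC61 and GDF15 lay below the filter level of 4 on every treated array and passed it only through their untreated arrays. For PDZK1IP1 they were SERPINA1, which encodes alpha-1 antitrypsin (r = 0.968), ASS1, an enzyme of arginine synthesis (r = 0.959), and RBKS, which encodes ribokinase (r = 0.958). SERPINA1 averaged 9.34 ± 0.17 before treatment, 8.25 ± 0.23 after 24 h and 7.51 ± 0.23 after 48 h (SD, n = 3 each). As for PDZK1IP1, the means of SERPINA1, ASS1 and RBKS were lower at 48 h than at 24 h. Genes picked for their likeness to PDZK1IP1 share its pattern through that choice. Among the members, r was 0.827 between MAL and PDZK1IP1, 0.877 between PDZK1IP1 and PDZK1, and 0.671 between MAL and PDZK1. The highest r of any member pair was 0.927, between MAL and MUC1, which lay below the filter. PDZK1 with RDX (0.752), EZR with MUC1 (0.728) and PDZK1IP1 with MUC1 (0.694) also lay above 0.671.

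The cells were checked against markers of their labelled type. Of 9 markers of renal epithelium and proximal tubule on the array, KRT8, KRT18 and PAX8 lay above the filter on all 9 arrays, and LRP2, CUBN, ANPEP, MME, AQP1 and PAX2 below it on all 9. The line thus showed epithelial keratins and a kidney transcription factor, while the defining brush border genes were near background before TGFβ1 as well. PAX8 fell by 0.60 at 24 h and by 0.81 at 48 h (limma adjusted p = 0.0233 and 0.00496). KRT8, a keratin of simple epithelia, had differences of 0.65 at 24 h and 0.46 at 48 h (limma adjusted p = 0.0640 and 0.222). With the run as a block KRT8 was called as higher at 24 h and not at 48 h (limma adjusted p = 0.0123 and 0.0546). The mean log2 level of the 9 markers per array ranged from 3.75 to 3.83 before treatment, from 3.74 to 3.84 at 24 h and from 3.68 to 3.73 at 48 h. All 5 endothelial, 4 leukocyte and 4 distal nephron markers lay below the filter on every array, as did 6 of 7 fibroblast markers, LUM being above it. The mean level of the 7 fibroblast markers per array was 2.33 to 2.57 in untreated cells, 2.42 to 2.76 at 24 h and 2.52 to 2.67 at 48 h. Whether these shifts bear on the decreases of the members was not tested.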

How the data were processed

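RNA of HK-2 cells was measured on 9 one-colour Affymetrix arrays, 3 per time. The authors deposited 1 log2 value per probe set, and the submitters' processing notes name GCRMA, with no version stated. The log base was read from the values. The table held 22277 probe sets, 62 of them controls. Gene symbols came from the platform annotation and were updated through RefSeq gene IDs, which matched 19058 probe sets. Values were used with no further normalization. limma 3.58.1 in R 4.3.3 (lmFit, eBayes) was fitted to all 9 arrays, with Benjamini-Hochberg adjustment over 4368 genes at a threshold of 0.05. Genes entered if they reached a log2 value of 4 on at least 3 arrays. The fit was tested on simulated data.

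Deviations from group means correlated at 0.378 to 0.662 between arrays of 1 replicate number and at −0.526 to 0.185 between numbers, and all 9 arrays matched their own number best. The numbers were therefore taken as runs and fitted as a block, an inference from the data, since the labels do not tie a number to a day. A planned permutation test of MSN minus EZR is not given, because the pair's directions fix its sign. A gene of the linker partner list is not reported here by name. The replicates are separate experiments on 1 line, and their number limits the precision. Members, gene lists and tests were chosen with earlier results of these data known. All members are named whatever their values, list genes by the smallest p (up to 4 past the threshold per list and comparison) with others chosen after their values were seen, and 3 genes by likeness to MAL and to PDZK1IP1. Alternatives were other filters, probe set rules, scalings, an eBayes trend and leaving out arrays.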

Additional observations from a re-analysis of the deposited data

How the results depend on the processing

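The members' own differences kept their calls under 8 planned settings and with each array left out, except that PDZK1 was called at 24 h and 48 h with the replicate block and in no other planned fit (limma adjusted p from 0.0844 to 0.450 there). None of those other planned fits held the block. PDZK1 and NHERF1 were not tested under the stricter filter, which they did not pass. With the replicate block the members called went to 1 at 24 h and 1 at 48 h, and the genes called in all to 501 and 438, since the shifts between runs leave the error. With 1 array left out, the genes called ranged from 95 to 197 at 24 h and from 107 to 206 at 48 h. At 24 h the count was 95 without untreated replicate 1, 118 without 24 h replicate 3, 129 without 24 h replicate 2 and 139 without 48 h replicate 1. At 48 h it was 107 without untreated replicate 1, 111 without 48 h replicate 3 and 112 without 48 h replicate 1. MAL differed from untreated by −2.86 to −2.34 at 24 h and by −2.92 to −2.41 at 48 h over all 17 settings, and PDZK1IP1 by −1.87 to −1.43 and −2.77 to −2.03. The change of MSN minus EZR stayed between 0.44 and 0.50 at 24 h and between 0.35 and 0.43 at 48 h over 4 settings. With no filter on low values, MUC1 had a limma adjusted p of 0.0877 at 24 h (0.0310 with the replicate block) and 0.222 at 48 h (0.0937), settings added after the data were seen. Values near the array median are limited by background.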
